A study of Mus musculus with 6 samples.

Results

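Genes that store, sense and export iron or that govern ferroptosis, the iron-driven death of cells by lipid peroxidation, were followed in haematopoietic stem cells that lack Dcaf8. The set of 10 was chosen by function and not by level, though with earlier results of these data known. Its genes were Fth1, Ftl1, Ncoa4, Ireb2, Aco1, Slc40a1, Slc7a11, Gpx4, Aifm2 and Acsl4. All 10 were found among the 55357 gene identifiers of the table. Long-term haematopoietic stem cells (LT-HSCs), which renew themselves and give rise to all blood lineages, were sorted from bone marrow of young mice as Lin- Sca-1+ c-Kit+ cells positive for CD150 and negative for CD48. The 2 groups were Dcaf8 knockout and wild-type control mice, with 3 libraries a group, each made from 50 cells by full-length amplification of mRNA. Strain, sex, exact age and the kind of knockout allele are not stated in the sources used here. The Dcaf8 protein picks substrates for ubiquitin ligases built on CUL4 and DDB1, and the comparison asked how its loss alters RNA levels in these cells.

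Cells keep spare iron inside ferritin, a shell of heavy (Fth1) and light (Ftl1) chains, and release it when Ncoa4 carries ferritin to the lysosome. When iron is scarce, the iron regulatory proteins encoded by Aco1 and Ireb2 bind a short RNA hairpin, the iron-responsive element. Bound in the 5′ UTR the hairpin blocks translation, and bound in the 3′ UTR it protects the mRNA from decay. Free iron feeds the peroxidation of polyunsaturated phospholipids, which Acsl4 helps to build. Gpx4 repairs these lipids with glutathione, whose cysteine comes in through Slc7a11, and Aifm2 (FSP1) protects membranes through reduced coenzyme Q. Stem cells of the marrow are known to be sensitive to excess iron.

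The hairpin is what ties 3 of the 10 genes together beyond their listing, so its sequences are shown here. GENCODE M21 transcripts (build GRCm38, whereas the counts were made on mm39) were searched for 27-base hairpins with an unpaired C, then 5 stem bases, then the loop CAGTGN. The 5 bases on each side of the CAGTGN loop had to pair, and at least 4 of the next 5 beyond the unpaired C. G-U pairs were allowed, and only the transcript strand was searched. In the lines that follow, 5′ to 3′ in DNA letters, capitals mark the bulged C and the loop.
Fth1: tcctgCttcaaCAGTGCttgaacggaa
Ftl1: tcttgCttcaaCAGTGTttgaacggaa
Slc40a1: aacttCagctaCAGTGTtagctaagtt
Tfrc: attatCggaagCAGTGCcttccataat
The Fth1 element lies at chr19:9982733-9982759 on the plus strand, and the Ftl1 element at chr7:45459780-45459806 on the minus strand. That of Slc40a1 lies at chr1:45925466-45925492 on the minus strand, and each of these 3 sits in exon 1, within the 5′ UTR. The ferritin elements were identical at 25 of 27 positions and differed by C3T and C17T (Fth1 first, counted from the 5′ end), while Fth1 and Slc40a1 shared 13 of 27. Tfrc, the transferrin receptor gene and no member of the set, held 4 such hairpins in the 3′ UTR of exon 19, of which the first is shown. The pattern was found in the 5′ UTR of 6 of 21899 coding genes (0.027%): Fth1, Ftl1, Slc40a1, Alas2, Ppp1r1b and Ftl1-ps1. No match in the other 7 genes of the set says only that these letters are not in these transcripts. Counts of mRNA do not measure how often a message is translated.

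The libraries held 14461864 to 22386387 counts. Dcaf8 stood at 262 ± 50.7 TMM-normalised CPM (counts divided by scaled library size) in wild-type and at 52.6 ± 19.2 in knockout cells (n = 3 per group, SD). Every knockout library was lower, and the exact permutation p was 0.1, the lowest possible with 3 libraries a group. Of 14592 genes tested by edgeR's quasi-likelihood test, none passed a Benjamini-Hochberg adjusted p of 0.05 (0.0% called), Dcaf8 included (adjusted p = 0.739). As even Dcaf8 went uncalled, a gene not called by edgeR is not thereby shown to be unchanged. DESeq2 called 153 genes (0.861% of those given an adjusted p). All 10 markers of LT-HSCs and their gate, such as Kit, Slamf1 and Mecom, were counted in every library. Of 10 erythroid markers 6 were counted in all 6 libraries, Car2, Epor and Klf1 among them, while Car1 was at 0 in all. Of 10 monocyte and macrophage markers 4 were counted in all 6 (Csf1r, Cd68, Hmox1 and Cd163), while Adgre1 was at 0 in all. Wild-type replicate 2 stood apart through neutrophil genes, 10 markers of which summed to 6217 CPM there and to at most 29.4 CPM elsewhere. Knockout replicate 3 alone had Xist, the RNA of the inactive X chromosome, at 50.7 CPM and the Y-linked Ddx3y at 0. No mouse is named for any library, so p-values measure the spread between these libraries, which may in part be technical.

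Of the 10 genes 9 passed the filter on low counts and were tested. None was called by edgeR, none had an unadjusted p under 0.05 (background 5.82% of all genes tested), and DESeq2 called 0 of the 10 (it gave Slc40a1 no p). Fold values lay below 0 for 7 of the 9, against 49.1% of all genes tested, and the median log2 fold change of the 9 was -0.10, against 0.01 over all genes. Knockout and wild-type libraries did not overlap for 1 member, Slc40a1; of all genes tested 10.3% did not overlap, 4.43% with lower knockout values. In bulk libraries such as these, fewer cells of a type and less RNA per cell cannot be told apart.

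**Figure D1:**
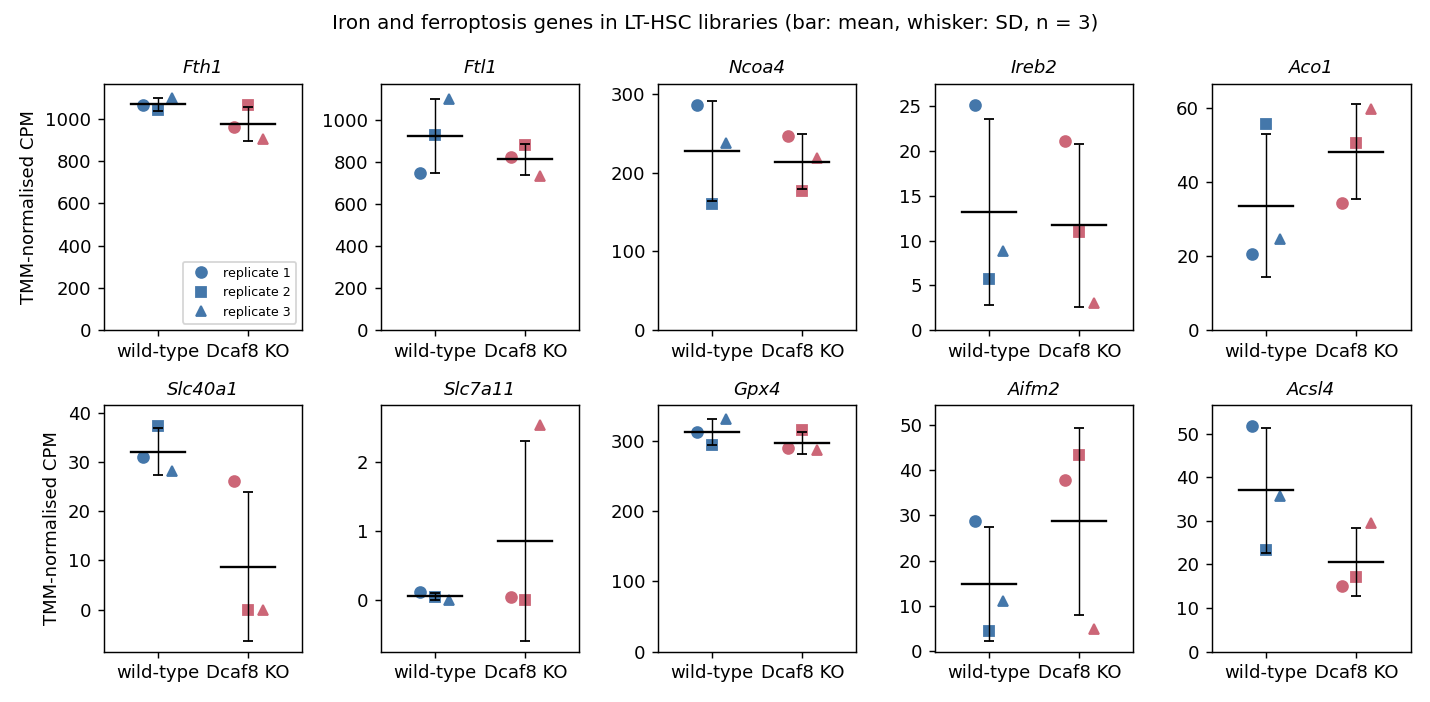
Each panel plots the TMM-normalised CPM of 1 gene (linear axis) in the 3 wild-type (blue) and 3 Dcaf8 knockout (red) libraries, with circle, square and triangle for replicates 1 to 3, a bar at the mean and a whisker for the SD. Fth1 and Gpx4 are close together in all 6 libraries, while Slc40a1 is at 0 in knockout replicates 2 and 3 and at 26.3 CPM in replicate 1.

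Ferritin was the most abundant product of the set. Fth1, the heavy chain that oxidises iron for storage, stood at 1066, 1040.4 and 1102 CPM in wild-type and at 963, 1065 and 906 CPM in knockout replicates 1 to 3. The genotypes overlapped only in that knockout replicate 2 reached the wild-type range, and the log2 fold change was -0.13 ± 0.093 (SE; edgeR adjusted p = 0.939). Ftl1, the light chain that helps the iron core to form, stood at 749.8, 928 and 1099 CPM in wild-type and at 825, 882 and 734 CPM in knockout libraries. Here the wild-type libraries spanned more than the knockout ones did, and the log2 fold change of -0.19 ± 0.15 (SE; adjusted p = 0.954) moved to -0.04 when wild-type replicate 3 was left out and to -0.32 when replicate 1 was. The ratio of Fth1 to Ftl1 counts was 1.42, 1.12 and 1.00 in wild-type, against 1.17, 1.21 and 1.24 in knockout cells, so the knockout ratios lay within the wild-type range. Reads of both chains can be shared with near copies elsewhere in the genome, and in the GENCODE annotation Ftl1 exons overlap Gm10252 on the opposite strand (540.3 ± 64.0 and 469.7 ± 50.2 CPM, SD, n = 3 per group). Whether the counting used strand is not stated in the sources used here.

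Ncoa4, the receptor that delivers ferritin for breakdown, stood at 286, 159.8 and 238 CPM in wild-type and at 247, 177 and 219 CPM in knockout libraries. The knockout values fell inside the wild-type range, and the log2 fold change of -0.07 ± 0.24 (SE; edgeR adjusted p = 0.994) changed sign, to 0.12, without wild-type replicate 1 and, to 0.04, without knockout replicate 2. Relative to Fth1, Ncoa4 counts were 0.213 ± 0.0576 in wild-type and 0.221 ± 0.0486 in knockout cells (n = 3 per group, SD).

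Both sensors of iron were low and uneven between libraries. Ireb2 (IRP2), which is destroyed when iron is plentiful, stood at 25.1, 5.67 and 8.78 CPM in wild-type and at 21.1, 10.9 and 2.99 CPM in knockout libraries. High and low libraries occurred in each genotype, and the log2 fold change of -0.10 ± 0.80 (SE; edgeR adjusted p = 0.999) ran from -1.05 without knockout replicate 1 to 0.72 without wild-type replicate 1. Aco1 (IRP1), an aconitase that turns into an RNA-binding protein when it loses its iron-sulphur cluster, stood at 20.5, 55.8 and 24.6 CPM in wild-type and at 34.3, 50.5 and 59.8 CPM in knockout libraries. Wild-type replicate 2, the library with neutrophil RNA, was the only wild-type library inside the knockout range. The log2 fold change of Aco1, 0.49 ± 0.45 (SE; edgeR adjusted p = 0.963), was 1.08 without that library (adjusted p = 0.815) and 0.24 without wild-type replicate 1 (adjusted p = 0.913), and the part of neutrophil RNA in it was not tested. The ratio of Ireb2 to Aco1 counts was 1.23, 0.102 and 0.357 in wild-type, against 0.616, 0.216 and 0.0499 in knockout libraries, so that it ranged as widely within a genotype as between them.

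Slc40a1 (ferroportin), the only known exporter of iron from mammalian cells, was missing from the counts of 2 knockout libraries. It was counted 551, 773 and 556 times in the wild-type libraries and 599 times in knockout replicate 1, but 0 times in knockout replicates 2 and 3. In normalised terms it stood at 31.0, 37.5 and 28.2 CPM in wild-type and at 26.3, 0 and 0 CPM in knockout cells. The wild-type libraries and knockout replicate 1 lay close together, and the other knockout libraries stood apart from all 4. With a floor of 3 counts, which covers counting error only, the level was at least 155-fold lower in knockout replicate 2 and at least 238-fold lower in replicate 3 than the wild-type mean of 32.2 ± 4.75 CPM (SD, n = 3).

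The genotype contrast of Slc40a1 as a whole was not called. The log2 fold change was -1.70 ± 0.88 (SE, edgeR unadjusted p = 0.0918, adjusted p = 0.881), and DESeq2 gave no p for this gene. Limma-voom gave -7.14 ± 2.12 (SE, limma-voom unadjusted p = 0.0128, adjusted p = 0.882), so the size differed between methods. Without knockout replicate 1 the unadjusted p was 0.0012 and the adjusted p still 0.977, and the size of that change is the bound given above. Genes of like level with such zeros were counted after the Slc40a1 values were seen, in ranges that hold its wild-type values. Slc40a1 thus falls in the count by construction. Of 385 genes between 20 and 40 CPM in every wild-type library, Slc40a1 was the 1 gene at 0 counts in at least 2 knockout libraries, and 3 others were at 0 in 1. Over the wider range of 10 to 100 CPM it was again 1 gene of 4555. In the mirrored count, 0 of 532 genes between 20 and 40 CPM in every knockout library, and 11 of 5263 between 10 and 100 CPM, were at 0 in at least 2 wild-type libraries. These counts describe the libraries and hold no test.

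Ferroportin is abundant in macrophages and erythroid precursors, so their markers stand beside it. The 10 monocyte and macrophage markers summed to 35.0 to 113 CPM in wild-type and 73.8 to 105 CPM in knockout libraries, and 4 of the 10 were counted in all 6. By library the sums were 35.0, 113 and 56.2 CPM in wild-type and 86.9, 105 and 73.8 CPM in knockout replicates 1 to 3. Few markers made up much of a sum: Cd68 was 69.8 CPM in knockout replicate 2, and Ly6c2 was 41.8 CPM in wild-type replicate 2. Single markers ran in both directions: of the 10, the groups did not overlap for 3, beside 10.3% of all genes tested. C1qb stood at 6.18, 11.2 and 10.6 CPM in wild-type and lower, at 1.97, 2.28 and 0 CPM, in knockout libraries. Cd163 (5.68, 4.41 and 3.81 against 13.9, 17.4 and 23.7 CPM) and Cd68 (8.32, 18.2 and 15.3 against 36.7, 69.8 and 18.5 CPM) were higher in every knockout library. The 10 erythroid markers summed to 1579 to 1801 CPM and 1517 to 1862 CPM, mostly through Car2, which is not confined to erythroid cells, while Car1 was at 0 throughout. The part of such cells in the Slc40a1 values was not tested.

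**Figure D2:**
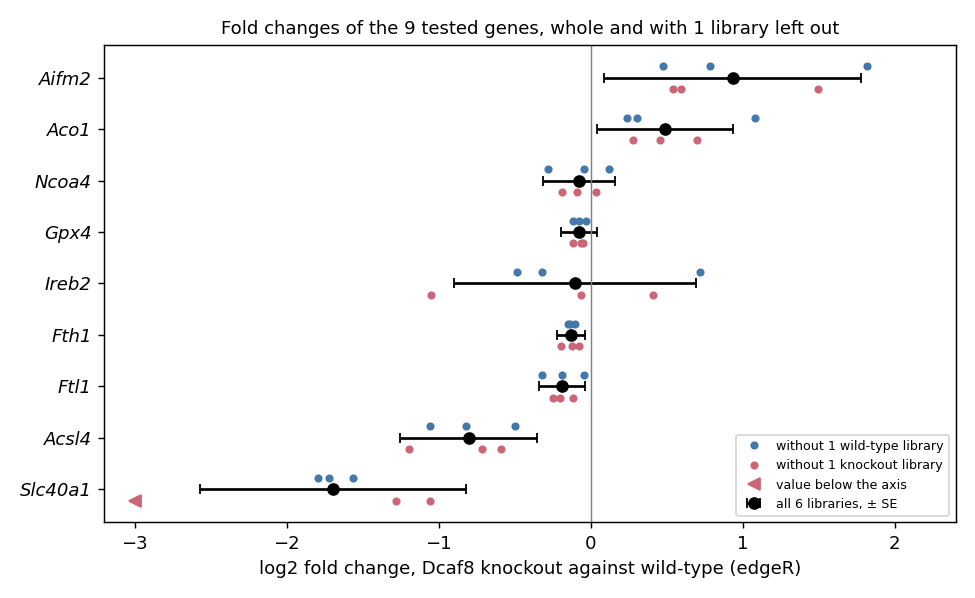
The log2 fold change (knockout against wild-type, edgeR) is plotted for the 9 tested genes as a black point with its SE; blue and red dots give the value with 1 wild-type or 1 knockout library left out. Fth1, Ftl1 and Gpx4 stay close to 0, Ireb2 and Ncoa4 fall on both sides of 0, and the arrow of Slc40a1 marks the fit without knockout replicate 1, which lies below the axis.

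The genes that hold off ferroptosis differed in how evenly they were counted. Gpx4, the selenoenzyme that reduces lipid hydroperoxides in membranes, stood at 312, 294 and 331 CPM in wild-type and at 289, 315 and 286 CPM in knockout libraries. All 6 values lay within a narrow band, the knockout mean was 94.96% of the wild-type mean, and the log2 fold change was -0.08 ± 0.12 (SE; edgeR adjusted p = 0.976). Aifm2, an oxidoreductase that regenerates the antioxidant form of coenzyme Q, stood at 28.8, 4.41 and 11.1 CPM in wild-type and at 37.7, 43.3 and 4.88 CPM in knockout libraries. Knockout replicates 1 and 2 exceeded every wild-type library, whereas knockout replicate 3 was near the lowest wild-type value. The log2 fold change of Aifm2 was 0.94 ± 0.85 (SE; adjusted p = 0.963). It ranged from 0.47 without wild-type replicate 2 to 1.82 without wild-type replicate 1, and was 0.54, 0.60 and 1.49 without knockout replicates 1, 2 and 3, so single libraries moved it both ways. In the annotation Aifm2 shares exon sequence with H2afy2 on the opposite strand, itself at 6.46 ± 5.26 and 2.84 ± 1.69 CPM (n = 3 per group, SD).

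Slc7a11, the cystine carrier of the xCT exchanger, was hardly counted and did not pass the filter. It had 2, 1 and 0 counts in wild-type and 1, 0 and 56 counts in knockout libraries, so knockout replicate 3, at 2.53 CPM, was the only library above 3 counts. With no filter on low counts its log2 fold change was 4.06 ± 3.48 (SE; edgeR adjusted p = 0.992). Its partner chain in the exchanger, Slc3a2, which also serves other amino acid carriers, stood at 407 ± 29.7 CPM in wild-type and 366 ± 15.8 CPM in knockout cells (n = 3 per group, SD).

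Acsl4, which loads long polyunsaturated fatty acids into phospholipids and so supplies the substrate of peroxidation, stood at 51.9, 23.4 and 35.8 CPM in wild-type and at 15.2, 17.1 and 29.4 CPM in knockout libraries. The groups overlapped because knockout replicate 3 lay above wild-type replicate 2, and the knockout mean was 55.6% of the wild-type mean. The log2 fold change of -0.80 ± 0.45 (SE; edgeR adjusted p = 0.899) was -1.19 without knockout replicate 3 (adjusted p = 0.974), -0.50 without wild-type replicate 1, and -1.06 (adjusted p = 0.815) when wild-type replicate 2 was left out. Acsl4 lies on the X chromosome, and knockout replicate 3 was the library with Xist. The part of sex in its level was not tested. Set against Gpx4, Acsl4 counts gave ratios of 0.166, 0.0794 and 0.108 in wild-type, against 0.0524, 0.0544 and 0.103 in knockout libraries, which overlapped through the same knockout library.

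Between genes, levels were compared per kilobase of the principal coding transcript of GENCODE. In wild-type cells Fth1 (1151 ± 33.2 CPM per kilobase) and Ftl1 (956 ± 181) came first and their libraries overlapped (SD, n = 3). Gpx4 followed at 326 ± 19.0 and Ncoa4 at 68.3 ± 19.1 CPM per kilobase, each apart from its neighbours in every library. Below them Aifm2 (10.2 ± 8.73), Slc40a1 (9.57 ± 1.41), Aco1 (8.78 ± 5.04) and Acsl4 (7.01 ± 2.70) formed an order in which neighbours did not differ beyond their spread. Ireb2 (2.29 ± 1.81) came next, its highest library (4.35) just under the lowest of Acsl4 (4.43), and Slc7a11 came last. With the longest coding transcript in place of the principal one, Ftl1 (956) stood above Fth1 (716 ± 20.6 CPM per kilobase), and Aifm2 (4.78 ± 4.08) stood below Slc40a1, Aco1 and Acsl4. The order of the ferritin chains and the place of Aifm2 thus depend on the transcript taken.

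The spread between libraries of 1 genotype differed between the genes. The coefficient of variation (CV, the SD pooled over both genotypes, as a percent of the mean) was 5.61% for Gpx4 and 5.96% for Fth1. Among 519 genes of a level within 25% of that of Gpx4 the median CV was 13.7%, and 4.24% of them varied less. Among 52 genes of the level of Fth1 the median was 10.5%, and 7.69% varied less. At the other end, Aifm2 had a CV of 79.1%, where 1472 genes of like level had a median of 44.4% and 91.98% of them varied less. For Ftl1 (15.5% against a median of 10.5%) 86.1% of genes of like level varied less, for Ncoa4 (23.3% against 16.05%) 81.4%, and for Ireb2 (78.8% against 56.9%) 75.0%. Nearer the middle were Slc40a1 (54.8% against 45.4%, with 64.98% varying less), Aco1 (40.1% against 34.7%, 63.2%) and Acsl4 (39.9% against 40.6%, 48.4%). The pooled CV of Slc40a1 covers 14.7% in wild-type and 173% in knockout libraries, so it describes neither genotype. These comparisons are descriptions over genes, which are not replicates.

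**Figure D3:**
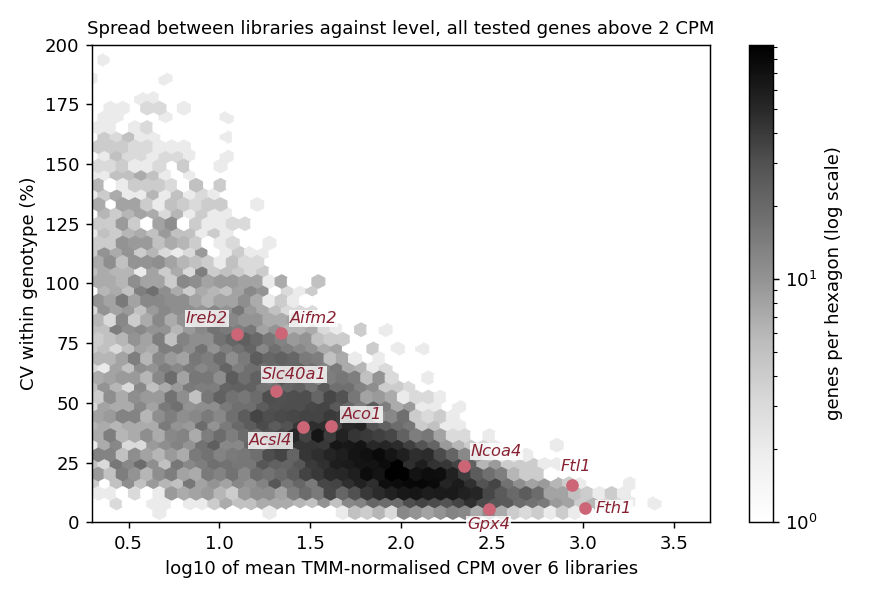
The CV within genotype (vertical axis, %) is plotted against log10 of the mean TMM-normalised CPM over 6 libraries, with grey hexagons for all tested genes above 2 CPM and red points for the 9 tested genes of the set. Gpx4 (5.61%) and Fth1 (5.96%) lie at the lower edge of the cloud and Aifm2 (79.1%) near its upper edge.

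Other genes of the same processes were taken from 8 lists with 108 genes, of which 94 were tested. By edgeR 0 were called higher and 0 lower. Without adjustment, 6 had a p under 0.05 and higher values (background 3.47%) and 2 had lower values (background 2.35%). The median log2 fold change was -0.05, against 0.01 over all genes. Groups did not overlap for 6 of the 94 with higher and 6 with lower knockout values. Of all genes tested, 5.91% and 4.43% did so. The genes described below as not overlapping are among these, and several were named for their small p. DESeq2 called 2 of the 108, Nfe2l2 and Fads2, beside 0.861% of all genes given an adjusted p. Some of the 108, such as Hamp and Chac1 with 0 counts, were given none.

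Uptake of iron was carried by abundant and scarce transcripts with no change called by either edgeR or DESeq2 among 8 tested of 9 genes. Tfrc, the transferrin receptor with the 3′ UTR hairpins shown above, stood at 49.2, 27.4 and 43.1 CPM in wild-type and at 24.0, 26.1 and 38.3 CPM in knockout libraries. The groups overlapped, with a log2 fold change of -0.41 ± 0.37 (SE; edgeR adjusted p = 0.963). The zinc and iron importers Slc39a14 and Slc39a8 had values of -1.49 ± 0.99 and -0.78 ± 0.62, and the haem transporter Slc48a1, the highest of the group, 0.08 ± 0.15 (log2 fold change, SE). Fbxl5, the ubiquitin ligase receptor that removes Ireb2 protein when iron is plentiful, stood at 111 ± 26.9 and 112 ± 16.1 CPM (n = 3 per group, SD). Among 7 tested sensing partners and ferritin adaptors none was called by edgeR; Pcbp1, a chaperone that hands iron to ferritin, was the highest at 329.5 ± 58.0 and 362 ± 44.8 CPM. Ciao1 and Ciao2b, of the cytosolic iron-sulphur assembly, had log2 fold changes of -0.40 ± 0.26 and -0.29 ± 0.24 (SE). Of the systemic iron genes and ferroxidases only 3 of 7 were tested, and Hfe (7.93 ± 7.12 and 16.2 ± 14.8 CPM) and Cp (1.59 ± 1.50 and 2.30 ± 0.408 CPM) were uneven or near the floor.

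Of 18 mitochondrial iron and iron-sulphur cluster genes, all tested, 15 had values below 0 (49.1% of all genes did) and none was called by edgeR. Their median log2 fold change was -0.07, against 0.01 over all genes. Nfs1, the desulphurase that supplies sulphur to the clusters, stood at 97.3, 102 and 90.8 CPM in wild-type and at 64.3, 83.0 and 79.6 CPM in knockout cells, without overlap (edgeR adjusted p = 0.899). Slc25a37 (mitoferrin 1), which brings iron into mitochondria, had a log2 fold change of -0.63 ± 0.39 (SE), and Hspa9, the chaperone of cluster transfer and highest of the group, 0.07 ± 0.12. Among haem genes, 13 of 14 tested, Ppox, a late enzyme of haem synthesis, stood at 78.2 ± 12.2 and 105 ± 10.1 CPM without overlap (adjusted p = 0.874). Uros, an earlier enzyme, had a log2 fold change of -0.33 ± 0.38 (SE). Hmox1, the inducible haem oxygenase that frees iron from haem, stood at 5.86, 0.145 and 22.6 CPM in wild-type and at 18.6, 8.28 and 17.2 CPM in knockout libraries. The constitutive Hmox2 stood at 220.01 ± 17.7 and 223 ± 10.9 CPM (n = 3 per group, SD).

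Of 10 cystine and glutathione genes 8 were tested and none was called by edgeR. Gclm, the modifier subunit of the enzyme that limits glutathione synthesis, stood at 179, 145 and 178 CPM in wild-type and at 222, 257 and 247 CPM in knockout cells. Every knockout library lay above every wild-type library (5.91% of all genes did so), with a log2 fold change of 0.53 ± 0.15 (SE; edgeR adjusted p = 0.739; DESeq2 adjusted p = 0.056). Nfe2l2 (NRF2), the transcription factor known to drive Gclm and Slc7a11, stood at 246, 262 and 278 CPM in wild-type and at 198, 167 and 166 CPM in knockout cells. It was thus lower in each knockout library, with a log2 fold change of -0.56 ± 0.14 (SE; edgeR adjusted p = 0.739; DESeq2 adjusted p = 0.00874). Gsr, which recycles glutathione, had -0.43 ± 0.30 (SE; edgeR adjusted p = 0.939).

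Suppressors that act beside Gpx4, of which 20 of 22 were tested, had values in both directions. EdgeR called none of them, and DESeq2 called 1, Nfe2l2, which is described above. Mboat1, a lysophospholipid acyltransferase, stood at 2.25, 17.2 and 15.1 CPM in wild-type and at 34.8, 45.6 and 43.2 CPM in knockout libraries, which did not overlap (edgeR adjusted p = 0.739). Prdx6, a peroxidase and the highest of the group, stood at 945 ± 43.7 and 854 ± 49.8 CPM (log2 fold change -0.15 ± 0.092, SE). A further 4 genes are named because their unadjusted p was under 0.05, a choice made after their values were seen. Sepsecs, the last enzyme in the making of selenocysteine, which Gpx4 needs, stood at 24.5, 54.7 and 68.0 CPM in wild-type and at 5.13, 18.1 and 23.5 CPM in knockout libraries. Trit1, which modifies tRNAs including that of selenocysteine, stood at 15.1 ± 8.16 and 35.0 ± 6.38 CPM. Dhodh, a mitochondrial enzyme that reduces coenzyme Q, stood at 77.9 ± 21.2 and 116 ± 5.04 CPM, and Coq8a, of coenzyme Q synthesis, at 153 ± 19.8 and 225 ± 57.5 CPM (n = 3 per group, SD). None of these 4 passed edgeR (adjusted p = 0.781, 0.818, 0.841 and 0.841).

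Among 20 genes of lipid peroxidation 17 were tested and none was called by edgeR. Fads2, the desaturase that begins the making of long polyunsaturated fatty acids, stood at 96.0, 143 and 96.7 CPM in wild-type and at 186, 206 and 183 CPM in knockout libraries. The groups did not overlap, with a log2 fold change of 0.77 ± 0.20 (SE; edgeR adjusted p = 0.739; DESeq2 adjusted p = 0.0453). Far1, which feeds the synthesis of ether lipids, stood at 156, 201 and 149 CPM in wild-type, against 143, 129.5 and 91.5 CPM in knockout libraries, also without overlap (edgeR adjusted p = 0.868). Vdac3, a channel of the outer mitochondrial membrane and the highest of the group, stood at 297.5 ± 19.9 and 275 ± 24.3 CPM (n = 3 per group, SD).

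**Figure D4:**
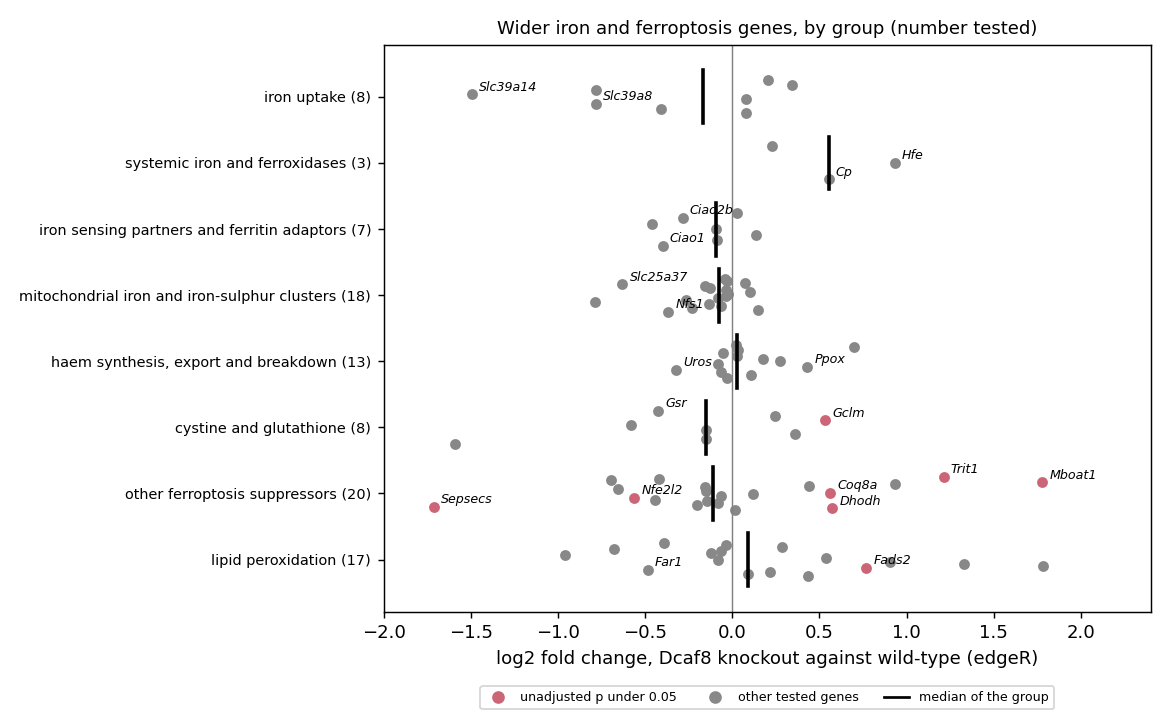
Each point is the log2 fold change (knockout against wild-type, edgeR) of 1 of the 94 tested genes of the wider lists, by group, with the group's median as a black line and genes with an unadjusted p under 0.05 in red. Of the 8 red points 6 lie above 0 and 2, Nfe2l2 and Sepsecs, below; none passed adjustment.

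Likeness between genes is given as Pearson's r of log2 CPM over the 6 libraries, a description that shares libraries and depth. Among the set and the wider lists the gene most like Acsl4 was Tfrc (r = 0.97), that most like Ftl1 was Ciao1 (0.97), and that most like Aifm2 was Ireb2 (0.85). Fth1 (0.90) and Gpx4 (0.89) had the same nearest gene, Slc25a37. The nearest of Ireb2 was Isca1 (0.93), of Slc40a1 Agps (0.88) and of Aco1 Blvrb (0.82). Among all tested genes with a mean of at least 5 CPM, Siah2 (0.99), Zfp37 (0.98) and Gm17473 (0.98) were most like Slc40a1. Each r named was picked as the highest of many over 6 libraries, so high values can come from the search alone. For Slc40a1, the 0 counts of knockout replicates 2 and 3 set most of the profile.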

How the data were processed

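The authors deposited 1 table of raw read counts per Ensembl gene, unpooled and with a column for each library. Per the submitters' processing notes, Trimmomatic 0.39, HISAT2 2.2.1, Picard 2.26.1, HTSeq 1.99.2, DESeq2 1.38.3 and mm39 were used, without stated roles; annotation release and strand setting are not stated in the sources used here. Without molecular identifiers, amplified reads are not independent molecules. Symbols matched 94.1% of identifiers, which held 99.87% of counts.

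The main test was edgeR 4.0.16 in R 4.3.3 (filterByExpr with a minimum count of 10 and total of 15, TMM, robust quasi-likelihood fit, legacy off, genotype only), adjusted by Benjamini-Hochberg over 14592 genes. It was also run on simulated counts, whose outcome is not given here, so its power is not stated. Standard errors came from the F statistic. DESeq2 1.42.0 and limma-voom (limma 3.58.1) were alternatives. Marker levels are CPM of total counts; other levels are TMM-normalised.

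Members, lists and tests were chosen with earlier results of these data known. Named were all members and, per wider list, the 2 genes with the smallest p and the most abundant, plus Tfrc, Fbxl5, Hmox1, Slc3a2 and Nfe2l2. Of the marker lists, B cell genes summed to 66.0 to 102 CPM (Ms4a1, Ebf1 and Pax5 at 0), T and NK cell genes to 73.5 to 172 CPM and endothelial and stromal genes to 49.3 to 76.2 CPM per library. The gene most like Ncoa4 is not reported here.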

Additional observations from a re-analysis of the deposited data

How the results depend on the processing

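The 9 tested genes stayed uncalled in all 14 alternatives: RLE or upper-quartile factors, no or a strict filter (5 CPM in 3 libraries), DESeq2 (no p for Slc40a1), limma-voom, the legacy fit, the replicate block and each library left out. Directions held except for Ncoa4, at 0.010 with limma-voom and from -0.28 to 0.12 with 1 library left out, and Ireb2, from -1.05 to 0.72. With DESeq2 in place of 0 there were 153 genes called, 2 of them in the wider lists, and Dcaf8 was called at -2.32 (adjusted p = 1.98e-09); no other alternative called any gene. Deviations of same-numbered libraries from their group means had r of 0.06, -0.04 and 0.01 over genes. Pairs with unlike numbers had r from -0.05 to 0.04. With so much spread between libraries, such values cannot show that a shared shift is absent. The labels state no pairing, and whether same-numbered libraries came from related mice or were handled together cannot be told from these values. With the replicate block 0 genes were called and Dcaf8 stood at -2.29. Of the 9 tested genes Ireb2 (12.4), Slc40a1 (20.5) and Aifm2 (21.7) had the lowest mean CPM; the part of depth in their spread was not tested.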

Other observations

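Near copies of ferritin and Gpx4 genes were counted beside their parents. Ftl1-ps1, which GENCODE lists as coding and which carries the same hairpin pattern, stood at 23.4, 26.6 and 24.2 CPM in wild-type and at 15.6, 10.5 and 12.8 CPM in knockout libraries. It was lower without overlap, with a log2 fold change of -0.90 ± 0.38 (SE; edgeR unadjusted p = 0.0484, adjusted p = 0.857; DESeq2 adjusted p = 0.207). Ftl1-ps2 had 11, 17 and 12 counts in wild-type and 3, 0 and 2 in knockout libraries (edgeR adjusted p = 0.747). Ftl2-ps stood at 5.49 ± 0.791 and 3.95 ± 0.529 CPM and Gpx4-ps2 at 55.5 ± 4.35 and 49.8 ± 1.01 CPM (n = 3 per group, SD), each lower in every knockout library (4.43% of all genes were). The 3 light-chain copies together came to 3.40 ± 0.568% of Ftl1 counts in wild-type and 2.11 ± 0.407% in knockout cells. Gpx4-ps2 came to 17.7 ± 0.611% and 16.8 ± 0.558% of Gpx4 counts. Reads of a parent and its copy may have been exchanged in counting, which was not tested. Fth-ps2, Fth-ps3 and Fthl17a had 0 counts in all libraries.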
